A study of Homo sapiens with 8 samples.

Results

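The genes described here encode the xenobiotic receptors PXR (NR1I2) and CAR (NR1I3), their partner RXRα (RXRA), and the target enzymes CYP3A4, CYP3A5, CYP3A7 and CYP2B6. These 7 genes were taken by their symbols from the table of 60230 genes, and each symbol matched 1 row. The rule uses no measured value, but the genes were chosen with earlier results of these data known. They were followed in CYP2C19-overexpressing HepG2 cells, a human liver cancer cell line selected with blasticidin for an introduced CYP2C19 gene, so that the control cells carried it as well. Cells were seeded 24 h before treatment and harvested after 24 h with DMSO alone (the solvent control) or with compound 4, 5 or 6, which the labels call metylcresol, tetrabut and cyclohexil. All are plastic-related chemicals built from a pair of phenol rings. In compound 4 a methylene bridge joins methylphenol rings that each carry a tert-butyl group, in compound 6 it joins methylphenol rings that carry cyclohexyl groups, and in compound 5 an ethane unit joins di-tert-butylphenol rings. Each was given at its own IC50, the concentration that lowers viability to the midpoint of the assay. Doses were thus set by effect and not to 1 shared concentration, and the authors describe these IC50 values as rather comparable. The viability assay ran longer than the treatment here. There were 2 libraries per group, labelled day 1 and day 2, with total counts between 9791659 and 17814595. The promoter that drives the introduced CYP2C19 was not given in the sources used here, and cells without it were not analysed here.

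PXR and CAR are nuclear receptors that sense drugs and other foreign chemicals in the liver. Each pairs with RXRα, binds pairs of hexamers in DNA, and raises transcription of enzymes that oxidize the chemical, enzymes that conjugate it and pumps that export it. CYP3A4 is the main drug-oxidizing enzyme of adult liver, CYP3A7 its fetal relative, CYP3A5 a relative expressed at levels that differ among people, and CYP2B6 a classical target of CAR that PXR also induces. HepG2 cells are known for low levels of many of these enzymes.

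The receptors' best known element near the CYP3A start sites is a pair of hexamers pointing away from each other with 6 bases between them (ER6). Promoter sequence was therefore read from RefSeq (GRCh38.p14) for the 4 enzyme genes. Each line shows bases -250 to -86 before the annotated start, 5′ to 3′ on the gene's strand, with capitals for the ER6 element or its counterpart, and for CYP2B6 for a lone hexamer.
CYP3A4: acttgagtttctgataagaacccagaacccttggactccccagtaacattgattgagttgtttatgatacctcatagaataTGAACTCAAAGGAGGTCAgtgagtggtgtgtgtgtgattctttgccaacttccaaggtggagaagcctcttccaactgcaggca
CYP3A5: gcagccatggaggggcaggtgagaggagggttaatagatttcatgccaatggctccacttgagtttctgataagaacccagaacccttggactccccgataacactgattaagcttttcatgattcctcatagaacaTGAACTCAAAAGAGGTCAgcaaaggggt
CYP3A7: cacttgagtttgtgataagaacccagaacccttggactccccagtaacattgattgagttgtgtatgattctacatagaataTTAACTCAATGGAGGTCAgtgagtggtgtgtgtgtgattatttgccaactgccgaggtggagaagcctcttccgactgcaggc
CYP2B6: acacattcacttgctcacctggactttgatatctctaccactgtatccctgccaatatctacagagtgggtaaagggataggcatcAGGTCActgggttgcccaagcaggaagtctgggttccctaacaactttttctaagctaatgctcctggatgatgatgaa

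These windows lie at chr7:99784270-99784434 (minus strand) for CYP3A4, chr7:99680082-99680246 (minus) for CYP3A5, chr7:99735282-99735446 (minus) for CYP3A7 and chr19:40991032-40991196 (plus) for CYP2B6. The hexamers were searched on both strands as AGGTCA or AGTTCA over the RefSeq promoters, which reach from 250 bases before to 50 bases after the start. An ER6 pair was found in 7 of 35116 promoters (0.0199%), CYP3A4 and CYP3A5 among them. The CYP3A5 element differed from that of CYP3A4 by G11A, a change between the hexamers, counted from 1 at the 5′ end of the CYP3A4 element. The CYP3A7 counterpart differed by G2T and A10T, and the first of these left it with only the AGGTCA hexamer and no ER6 match. CYP2B6 held a single AGGTCA at -164 to -159, a hexamer found in 13.8% of all promoters. Of the receptor genes, NR1I2 held 1 AGTTCA (10.4% of promoters) in 1 of its 2 promoters, and NR1I3 and RXRA held neither hexamer. Direct repeats with 3 bases (DR3, 0.0142% of promoters) or 4 bases between hexamers (DR4, 0.0342%) were found in none of the 7 genes' promoters. The windows do not reach the distal enhancers through which PXR and CAR are known to act on CYP3A4 and CYP2B6, and a match of letters is not evidence of binding.

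The 3 CYP3A members lie side by side on the minus strand of chromosome 7 (GRCh38, GENCODE 29): CYP3A5 at chr7:99648194-99680026, CYP3A7 at chr7:99684957-99735196 and CYP3A4 at chr7:99756960-99784265. CYP2B6 lies at chr19:40991250-41018398 (plus), NR1I2 at chr3:119780484-119818485 (plus), NR1I3 at chr1:161229666-161238302 (minus) and RXRA at chr9:134317098-134440585 (plus). Values below cover each gene's exons as 1 sum over its transcripts.

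In control cells the receptor side was uneven. Per kb of exon, mean levels in DMSO were 7.08 ± 0.122 CPM per kb for RXRA and 5.92 ± 0.14 for NR1I2 (SD, n = 2), where CPM is the count scaled to a library of 1000000. CYP2B6 followed at 2.22 ± 0.714, CYP3A5 at 0.499 ± 0.216 and CYP3A7 at 0.204 ± 0.0223, whereas NR1I3 stood at 0.0282 ± 0.00401 and CYP3A4 at 0.0163 ± 0.0231. Neighbours in this order did not overlap between their libraries, except NR1I3 and CYP3A4. CYP2C19 stood at 5.62 CPM per kb of its annotated exons, close to NR1I2. The length of the introduced copy was not given in the sources used here, so its level per kb is uncertain.

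CAR and CYP3A4 were at the edge of detection in these cells. NR1I3 was counted 1 and 1 times in the DMSO libraries of day 1 and day 2, 3 and 0 times with compound 4, 2 and 1 times with compound 5, and 5 and 2 times with compound 6. CYP3A4 was counted 1 and 0 times in DMSO, 4 and 3 times with compound 4, 0 and 5 times with compound 5, and 2 and 1 times with compound 6. A floor of 3 counts, the limit that a count of 0 allows, was not passed by NR1I3 in 7 of 8 libraries or by CYP3A4 in 6 of 8. With a floor of 10 counts both genes were below detection in every library, and the filter on low counts removed both, which left 5 of the 7 genes for the test. For CYP3A4 the ratio of summed counts with compound 4 (7 counts) to DMSO (1 count) was 6.38, with an exact 95% interval from 0.82 to 288 that includes no difference. For NR1I3 the same ratio with compound 6 (7 counts against 2) was 3.66, with an interval from 0.697 to 36.1. These intervals cover counting error only, and a change of either gene was not detectable at this depth. Of the 31-base words in CYP3A4 transcripts, 13.7% also occur in CYP3A7 and 4.86% in CYP3A5. The few counts given to CYP3A4 may thus include reads of these genes.

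PXR was clearly present, and neither it nor RXRα passed the test with any compound. NR1I2 was counted at 32.4 and 31.3 CPM in DMSO, 33.6 and 35.1 with compound 4, 29.3 and 34.0 with compound 5, and 37.4 and 43.4 with compound 6. Both compound 6 libraries were above both controls, and those of compound 5 overlapped them. The log2-fold change with compound 6 was 0.34 (95% interval 0.05 to 0.64, adjusted p = 0.203, Benjamini-Hochberg, by the quasi-likelihood test of edgeR), with compound 4 it was 0.11 (-0.19 to 0.40) and with compound 5 -0.01 (-0.30 to 0.29). RXRA, the shared partner of these and other nuclear receptors, was counted at 77.5 and 79.4 CPM in DMSO, 80.5 and 82.5 with compound 4, 89.4 and 86.6 with compound 5, and 71.3 and 69.4 with compound 6. Its libraries did not overlap those of DMSO with any compound, higher with compounds 4 and 5 and lower with compound 6, but the sizes were small. Its log2-fold changes were 0.06, 0.17 and -0.16 for compounds 4, 5 and 6, with adjusted p between 0.287 and 0.753.

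**Figure D1:**
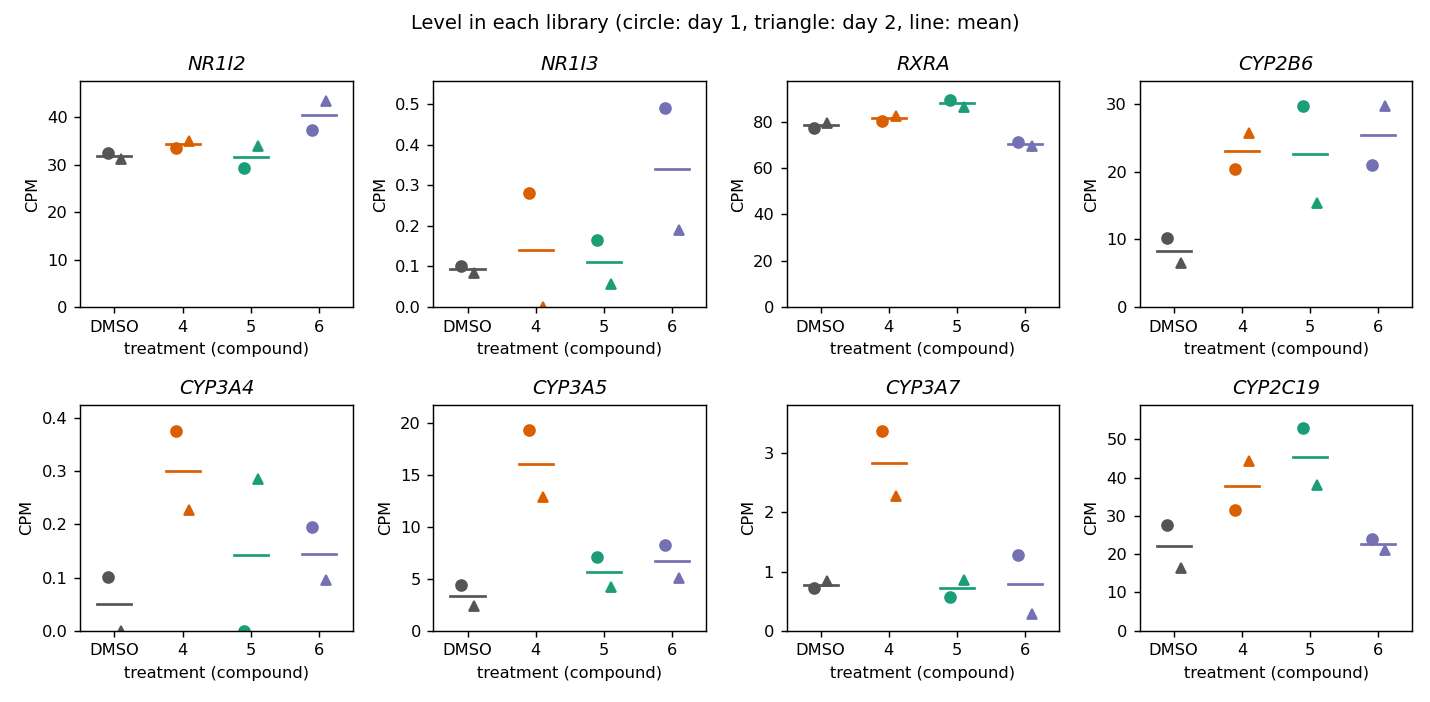
Level of each of the 7 genes and of CYP2C19 (introduced and own copies together) in every library, in CPM. Axes are linear from 0, each panel with its own scale. CYP3A5 reached 12.9 to 19.3 CPM with compound 4 against 2.34 to 4.41 in DMSO, CYP2B6 was above both DMSO libraries with every compound, and the NR1I3 and CYP3A4 panels show libraries of 0 to 5 counts.

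CYP3A5 rose with compound 4, by 4.81-fold. It was counted 43 and 28 times in the DMSO libraries, 206 and 169 times with compound 4, 86 and 74 times with compound 5 and 84 and 54 times with compound 6. Both compound 4 libraries lay above all other libraries. In CPM these were 4.41 and 2.34 in DMSO, 19.3 and 12.9 with compound 4, 7.08 and 4.21 with compound 5, and 8.24 and 5.12 with compound 6. The compound 6 libraries lay above both controls, whereas those of compound 5 overlapped them. The log2-fold change with compound 4 was 2.27 ± 0.38 (SE, adjusted p = 0.00973), and it was the only CYP3A change past the threshold. With compound 5 it was 0.74 ± 0.40 (95% interval -0.15 to 1.63, adjusted p = 0.249) and with compound 6 1.00 ± 0.40 (0.10 to 1.91, adjusted p = 0.228).

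Within days the CYP3A5 values were steadier than across them, since the day 1 library was the higher in all 4 groups. With compound 4 CYP3A5 was 4.39 times the DMSO level of the same day on day 1 and 5.48 times on day 2. The ratios were 1.61 and 1.80 with compound 5, and 1.87 and 2.18 with compound 6. In a fit with the day as a replicate block the compound 5 change of CYP3A5, 0.75, passed the threshold with an adjusted p of 0.0477, and the difference between compounds 4 and 5, 1.53, passed with 0.0116. Without DMSO replicate 2 the compound 4 change was 1.86 with an adjusted p of 0.114.

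CYP3A7 lay above the controls with compound 4 and overlapped them with the other compounds. Its counts were 7 and 10 in DMSO, 36 and 30 with compound 4, 7 and 15 with compound 5, and 13 and 3 with compound 6. Both compound 4 libraries were above all others. The log2-fold change with compound 4 was 1.83 ± 0.57 (95% interval 0.56 to 3.11) with an adjusted p of 0.0731, just outside the threshold, and it passed with only the 4 samples compared (1.82, adjusted p = 0.0273). With compounds 5 and 6 CYP3A7 values were -0.10 ± 0.64 and -0.01 ± 0.66.

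CYP3A7 reads are the least certain of the 7 genes. Of its transcripts' 31-base words 38.9% also occur in the readthrough gene CYP3A7-CYP3A51P and 11.5% in CYP3A4, so that Salmon had to divide such reads. The readthrough gene was listed at 0 in 6 libraries, at 8 in the day 2 library of compound 4 and at 12 in the day 1 library of compound 5. Summed with it, CYP3A7 gave log2-fold changes of 1.99 (adjusted p = 0.0559), 0.59 and -0.01 for compounds 4, 5 and 6. CYP3A43, the remaining CYP3A gene, had at most 4 counts in any library and was not tested.

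All CYP3A genes summed rose with compound 4 by 2.20 on the log2 scale (adjusted p = 0.00907). The sums changed by 0.70 with compound 5 (adjusted p = 0.249) and 0.90 with compound 6 (adjusted p = 0.25). Most of this sum was CYP3A5, whose share was between 73.7% (28 of 38 counts, exact 95% interval 56.9% to 86.6%) and 88.5% (54 of 61 counts, 77.8% to 95.3%) in the 8 libraries. The shares were 83.4% and 80.1% with compound 4 and 81.1% and 73.7% in DMSO, and the intervals of all 4 overlapped.

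CYP2B6 rose with compounds 4 and 5, and its libraries lay above the controls with compound 6 as well. Its counts were 100 and 77 in DMSO, 217 and 338 with compound 4, 362 and 270 with compound 5, and 214 and 315 with compound 6. In CPM these were 10.2 and 6.45, 20.4 and 25.7, 29.8 and 15.4, and 21.0 and 29.8. All 6 treated libraries lay above both DMSO libraries. CYP2B6 rose by 1.48 ± 0.34 on the log2 scale with compound 4 (2.79-fold, adjusted p = 0.0278) and by 1.43 ± 0.34 with compound 5 (2.70-fold, adjusted p = 0.0352). With compound 6 the change was 1.62 ± 0.34 (3.07-fold, 95% interval 0.85 to 2.39) with an adjusted p of 0.0581, where far fewer genes passed the adjustment. DESeq2 gave 1.60 with an adjusted p of 8.52e-05 for compound 6.

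The size of the CYP2B6 change depended on the library left out. Against DMSO of the same day the ratios were 1.99 and 3.99 with compound 4, 2.91 and 2.38 with compound 5, and 2.05 and 4.63 with compound 6, day 1 first. Unlike CYP3A5, neither day was the higher in all groups. Leaving out any one of the 4 libraries ended the compound 4 call (1.17 to 1.83, adjusted p 0.0502 to 0.228), and leaving out DMSO replicate 1 (1.78), DMSO replicate 2 (1.13) or compound 5 replicate 1 (0.88) ended the compound 5 call (adjusted p 0.089 to 0.22), as did a fit of only the 4 samples (1.43, adjusted p = 0.0581). CYP2B7P, a pseudogene that holds 18.7% of the 31-base words of CYP2B6, had 0 to 5 counts per library. With it added in, CYP2B6 gave 1.49, 1.44 and 1.63.

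**Figure D2:**
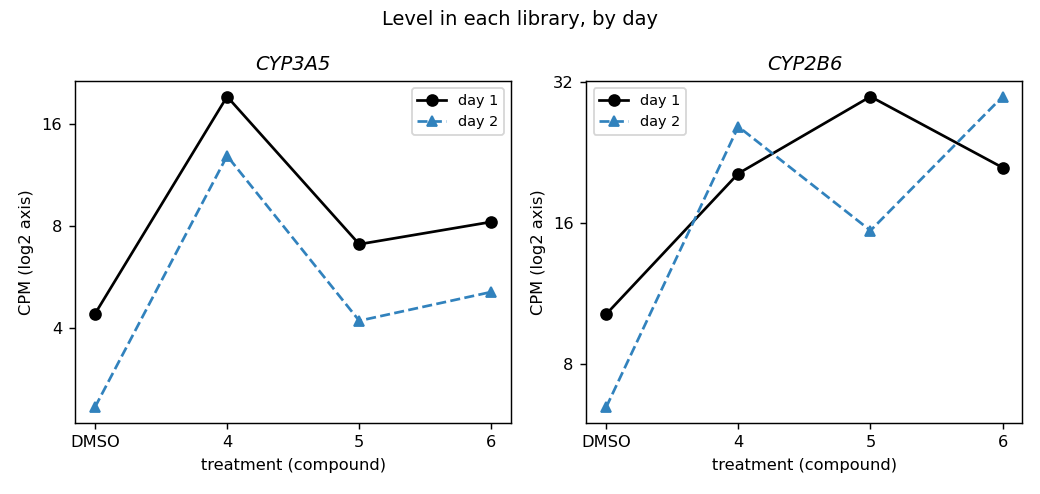
CYP3A5 and CYP2B6 in every library in CPM on a log2 axis, with lines joining the libraries of 1 day. The CYP3A5 lines run nearly parallel with day 1 above day 2, whereas the CYP2B6 lines cross, with 29.8 and 15.4 CPM on day 1 and day 2 for compound 5.

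Counted together, 2 of the 5 tested genes rose with compound 4 (CYP3A5 and CYP2B6), 1 rose with compound 5 (CYP2B6) and 0 passed with compound 6, with none lower. Among all 13400 genes tested, 9.51% passed with compound 4, 8.3% with compound 5 and 0.575% with compound 6, of which genes higher made up 5.6%, 5.35% and 0.493% of those tested. For compound 6, 3 of the 5 were at an unadjusted p under 0.05, as were 2490 of the 13400 genes, and 1 passed with DESeq2, as did 547 of 12620. Median log2-fold changes of the 5 genes were 1.48, 0.17 and 0.34, and those of all tested genes 0.013, 0.004 and 0.02. The comparisons share their DMSO libraries. With 5 genes, such counts describe the genes and do not set them apart from the rest.

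**Figure D3:**
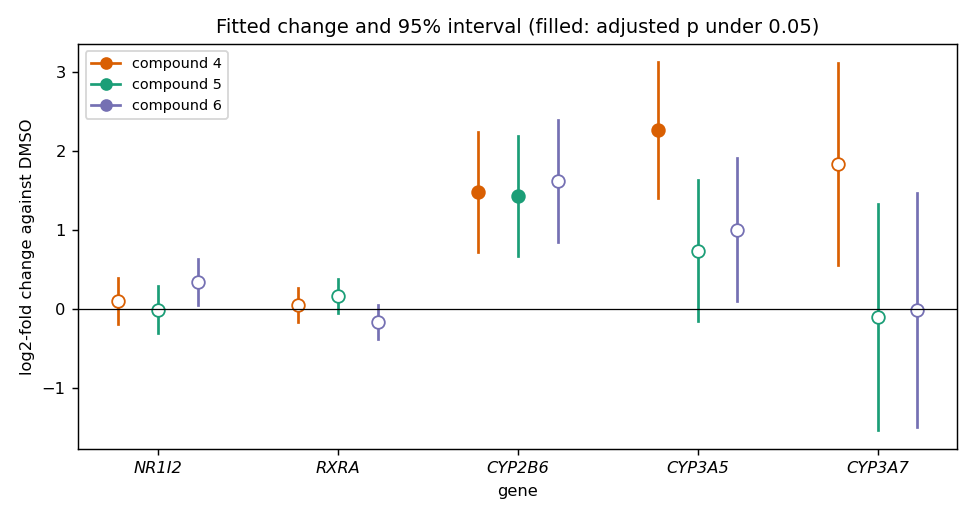
Fitted log2-fold change against DMSO with its 95% interval for the 5 tested genes, by compound. Filled points, CYP2B6 with compounds 4 and 5 and CYP3A5 with compound 4, are past the threshold of an adjusted p of 0.05, and the intervals of NR1I2 and RXRA stay within -0.38 and 0.64.

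Set side by side, each at its own IC50, the CYP2B6 changes of the compounds lay within 0.19 of each other on the log2 scale. The CYP3A5 changes lay up to 1.53 apart, though none of these differences passed in the main edgeR fit. The CYP3A5 difference between compounds 4 and 5 passed with the replicate block. Without a filter on low counts it passed too, as did that between compounds 4 and 6. Compounds 4 and 6 differ in the tert-butyl or cyclohexyl groups on like methylphenol rings, and compound 5 differs from both in its bridge and in having only tert-butyl groups on its rings. For CYP3A5 the log2 difference of compound 4 from compound 5 was 1.53 (95% interval 0.74 to 2.31, adjusted p = 0.102) and from compound 6 1.26 (0.48 to 2.05, adjusted p = 0.453). DESeq2 gave the first of these an adjusted p of 0.00968. For CYP3A7 compound 4 exceeded compound 5 by 1.93 (0.70 to 3.16, adjusted p = 0.153) and compound 6 by 1.85 (0.56 to 3.13, adjusted p = 0.526). For CYP2B6 the differences were 0.05 (-0.65 to 0.74) between compounds 4 and 5, -0.14 (-0.84 to 0.56) between 4 and 6, and 0.19 (-0.51 to 0.88) between 6 and 5. RXRA was lower with compound 6 than with compound 5 by 0.32 on the log2 scale (-0.54 to -0.10, adjusted p = 0.133), and its 2 groups did not overlap. Of 15 such comparisons (5 genes, 3 pairs), 0 passed in the main edgeR fit. In that fit 6 were at an unadjusted p under 0.05 (2 in each pair), and 1 passed with DESeq2 (compounds 4 and 5). Of the 13400 genes, 2177, 2483 and 945 were at an unadjusted p under 0.05 for 4 against 5, 6 against 5 and 4 against 6, and DESeq2 called 210, 379 and 59. Over all genes 0.313% passed between compounds 4 and 5 (42 genes, and 128 with the replicate block), 1.03% between 6 and 5 (138, and 269 with the block) and 0% between 4 and 6 (0 genes, and 1 with the block).

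Other known targets of PXR and CAR did not move as 1 group. Of 41 such genes listed, 28 passed the filter and 10 had at most 3 counts in every library. The listed P450 targets CYP2A6, CYP2A7 and CYP2C18, the uptake carriers SLCO1A2 and SLCO1B1, and INSIG1 were listed at 0 in all 8 libraries, which says only that no reads were assigned to them. With compound 4, 6 of the 28 were higher and 2 lower (median log2-fold change 0.24), with compound 5, 7 were higher (median 0.37), and with compound 6, 4 were higher (median 0.04). Of all tested genes, 5.6%, 5.35% and 0.493% passed as higher with compounds 4, 5 and 6. In either direction 9.51%, 8.3% and 0.575% passed. The list as a whole was not tested. These counts of 8, 7 and 4 were lower in most fits without 1 library, and so were the calls over all tested genes. A loss of calls in such fits is thus not particular to these targets. Of 38 calls of genes outside the 7 that were refitted under the alternatives, 7 held under every alternative run, those of CYP24A1 with compounds 4 and 6, CYP1A1, CYP2S1, ABCC3 and AKR1B10 with compound 4 and NR0B2 with compound 5.

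Among the transporters, ABCC2, which exports conjugates into bile, rose with every compound. It was counted at 584 and 565 CPM in DMSO, 979 and 1200 with compound 4, 1220 and 1020 with compound 5, and 962 and 1060 with compound 6, with log2-fold changes of 0.92, 0.96 and 0.82 (adjusted p 0.00524, 0.00555 and 0.042). ABCC3, which exports conjugates towards the blood, rose with compounds 4 and 6 by 1.25 and 1.24 (adjusted p 0.00156 and 0.00678). ABCC3 stood at 63.0 and 51.2 CPM in DMSO, 130 and 140 with compound 4 and 133 and 135 with compound 6, but at 56.6 and 52.0 with compound 5 (-0.07, 95% interval -0.35 to 0.20). SLCO1B3, a hepatic uptake carrier, rose with compound 5 by 1.09 (adjusted p = 0.0476), and gave -0.25 and 0.16 with compounds 4 and 6. ABCB1, the efflux pump P-glycoprotein and a classical PXR target, gave 0.18, 0.56 and 0.08 and passed with none (adjusted p 0.508, 0.0611 and 0.832).

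Of the metabolic targets, CYP24A1, the vitamin D 24-hydroxylase, rose most with each compound among those that passed. It went from 133 and 87.3 CPM in DMSO to 853 and 920 with compound 4, 316 and 244 with compound 5, and 465 and 489 with compound 6. All 6 treated libraries were above both controls, and the log2-fold changes were 3.01, 1.35 and 2.12 (adjusted p 0.00012, 0.0062 and 0.00556). AKR1B10, an aldo-keto reductase, rose by 1.17, 1.05 and 0.70 on the log2 scale (adjusted p 0.00203, 0.00311 and 0.0478). GADD45B, a stress-induced partner of CAR, rose with compound 4 by 1.38 (adjusted p = 0.0097), and TSKU, a secreted protein, rose with compounds 4 and 5 by 1.02 and 0.62 (adjusted p 0.00219 and 0.0132) and stood at 0.43 with compound 6 (adjusted p = 0.0984). POR, the reductase that feeds electrons to every microsomal P450, rose with compound 5 by 0.49 (adjusted p = 0.0206), while CYB5B, an outer mitochondrial cytochrome b5, fell with it by 0.59 (adjusted p = 0.023).

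Of 11 tested conjugating and hydrolysing enzymes, 1 passed with compound 4, 1 with compound 5 and 0 with compound 6. The CYP4 target passed with compound 4 only. Among all tested genes 9.51%, 8.3% and 0.575% passed with compounds 4, 5 and 6, so these counts do not set the enzymes apart. UGT2B4, a glucuronosyltransferase, rose with compound 5 by 0.74 (adjusted p = 0.0397), and gave -0.14 and -0.58 with compounds 4 and 6. GSTA1, a glutathione transferase, fell with compound 4 by 1.67 on the log2 scale (adjusted p = 0.0496), from 2.77 and 4.94 CPM to 1.13 and 1.29. With DESeq2 neither UGT2B4 with compound 5 (adjusted p = 0.0975) nor GSTA1 with compound 4 (adjusted p = 0.0568) passed. CYP4F12 fell with compound 4 by 0.66 (adjusted p = 0.0289). The UGT1A genes, which share most of their exons, and the near-identical GSTA genes are uncertain at the gene level. UGT1A3, with the widest errors of the listed targets, gave 2.80 ± 1.24 with compound 4 (adjusted p = 0.178).

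**Figure D4:**
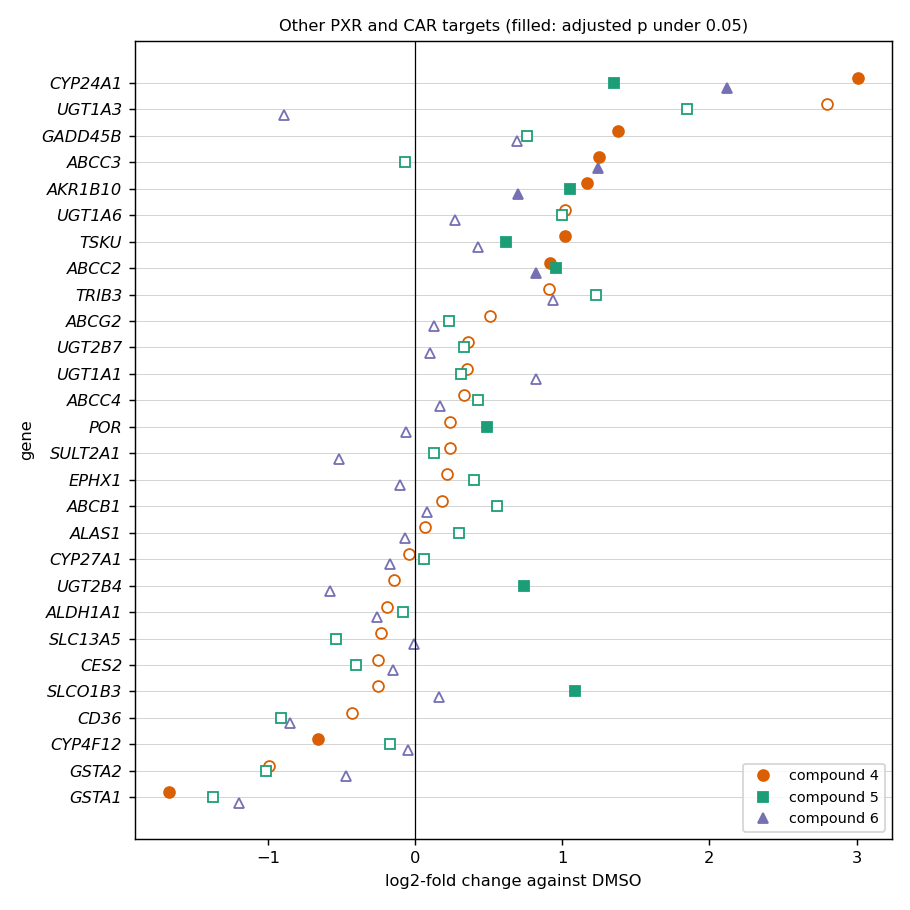
Fitted log2-fold change against DMSO of the 28 tested targets of PXR and CAR outside the 7 genes, by compound, ordered by the compound 4 value. Filled points are past an adjusted p of 0.05, and CYP24A1, AKR1B10 and ABCC2 are filled for all 3 compounds, whereas ABCC3 is filled for compounds 4 and 6 and stands at -0.07 for compound 5.

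Few partners and regulators of the receptors passed, as was so for all tested genes. Of those, 9.51%, 8.3% and 0.575% passed with compounds 4, 5 and 6. Of 13 tested genes among RXR family members and other RXR partners, 2 passed with compound 4, PPARG (0.88, adjusted p = 0.0177) and the bile acid receptor NR1H4, which fell by 0.74 (adjusted p = 0.0233), and 0 passed with compounds 5 and 6, where 3 and 3 were at an unadjusted p under 0.05 and 1 and 0 passed with DESeq2. Of 16 coregulators and chaperones, NR0B2, a repressor of nuclear receptors, rose with compounds 4 and 5 by 0.80 and 1.12 (adjusted p 0.00427 and 0.00188) and stood at 0.54 with compound 6 (adjusted p = 0.0541). The coactivator PPARGC1A rose with compound 5 by 0.89 (adjusted p = 0.0222). Of 13 hepatocyte factors, ONECUT1 fell with compound 4 by 1.19 (adjusted p = 0.0433, and 0.0567 with DESeq2) and CEBPB rose with compound 5 by 1.03 (adjusted p = 0.0227), while HNF4A, a main activator of PXR and the CYP3A genes, gave 0.09, -0.16 and 0.07.

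Of 5 tested P450 genes of families 1 and 2 outside the PXR and CAR lists, 2 rose with each compound and 3 did not pass. Among all tested genes, 5.6%, 5.35% and 0.493% passed as higher with compounds 4, 5 and 6. CYP1A1, the classical target of the aryl hydrocarbon receptor, went from 5.94 and 4.69 CPM in DMSO to 59.5 and 69.1 with compound 4, 10.8 and 9.05 with compound 5, and 15.5 and 23.2 with compound 6. Its log2-fold changes were 3.60, 0.90 and 1.87 (adjusted p 8.78e-05, 0.0476 and 0.0233), and with the replicate block the compound 5 value had an adjusted p of 0.0513. CYP2S1, another enzyme known to respond to that receptor, rose by 1.67, 1.22 and 1.48 (adjusted p 0.00216, 0.00713 and 0.0232). The 3 that did not pass, CYP2J2, CYP2U1 and CYP2W1, had values below 0 with every compound, from -0.17 to -0.84, with adjusted p between 0.113 and 0.756. For CYP1A1, CYP24A1, CYP3A5 and CYP2S1 the order of the values was compound 4, then 6, then 5, an order given as a description, since the genes were chosen with these values known and each compound's values share its libraries.

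CYP2C19, introduced and own copies together, was counted at 27.7 and 16.4 CPM in DMSO and 31.4 and 44.3 with compound 4. It was counted at 52.8 and 38.0 with compound 5, and 23.9 and 21.2 with compound 6. It rose with compound 5 by 1.05 (adjusted p = 0.0395), gave 0.79 with compound 4 (adjusted p = 0.0858) and 0.04 with compound 6. The compound 5 call was lost without DMSO replicate 1, DMSO replicate 2 or compound 5 replicate 1 (0.71 to 1.45). Its DMSO library of day 1 was the higher, as for CYP3A5 and CYP2B6. Reads of the introduced and the cells' own copy cannot be told apart in these counts.

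Liver identity of the cells was checked with 8 liver markers, all of which were detected. Their summed level was 45000 to 49800 CPM in DMSO, 32800 to 39400 with compound 4, 39600 to 41300 with compound 5 and 35000 to 40700 with compound 6, lower in every treated library. APOA1, APOB and TF fell with compound 4 by 0.90, 0.61 and 0.52 on the log2 scale. Of 4 tested fetal liver markers, AFP fell with compound 4 by 0.71. The other 3 did not pass, and the median of the 4 was -0.03. The fibrinogen gene FGB rose with compound 5 by 0.53. The leukocyte markers PTPRC and CD3E were at 0 in all libraries (LYZ was at 1380 to 2160 CPM), the 4 fibroblast markers summed to at most 0.102 CPM, the 3 endothelial ones to 0.74 to 2.08 CPM and the 4 bile duct ones to 427 to 503 CPM. The part of the lower marker sums in the changes of the CYP genes was not tested. CPM gives each gene's share of a library, so numbers of cells and RNA per cell are not seen in it.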

How the data were processed

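RNA of 8 samples was sequenced as paired-end reads from directional libraries on an Illumina NextSeq instrument, after quality control with FastQC 0.12.0. The authors estimated transcript abundance with Salmon 1.5.0 on a GENCODE 38 index, used tximeta for gene-level sums, and deposited these estimated counts as whole numbers, not normalized. The submitters' processing notes also name DESeq2 1.38.3. Whether the strand setting was used is not given in the sources used here. Column names mark the day 1 libraries of DMSO and compound 4 as merged, and do not say what was merged.

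Groups came from the labels. Counts were fitted in R 4.3.3 with edgeR 4.0.16 (TMM, filterByExpr at a minimum count of 10, 13400 genes, quasi-likelihood test, all 8 samples, no block), with Benjamini-Hochberg adjustment over all tested genes and a threshold of 0.05, and checked on simulated data. A permutation test of 2 against 2 libraries cannot go below 0.33, so none was run. Symbols were known for 60089 of 60230 genes. CPM used TMM-scaled library sizes, and exon lengths came from GENCODE 29, an older annotation than the authors used. Alternatives were DESeq2 1.42.0, its size factors, a day block, only the samples compared, 2 other filters, leaving out libraries and, chosen after the values were seen, summed counts of like genes and crossed days. The labels name the day of each sample, which pairs same-numbered samples. Their deviations from group means correlated at -0.149 to 0.236 over the 6 pairs of groups. Whether days are separate cultures is not given in the sources used here, so p-values measure the spread between these samples, which may be technical. Replicates differed by more than counting noise, with a mean chi-square of 8.41 to 19.6 per gene. Intervals of counts and shares (exact Poisson, Clopper-Pearson, 95%) cover counting error only.

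The members and gene lists were chosen with earlier results of these data known. Named genes were the 7 members, CYP2C19, the remaining CYP3A and CYP2B genes, and from each list the genes past the threshold in any comparison with DMSO, up to the 3 highest and 3 lowest per list and comparison. ABCB1, HNF4A, UGT1A3, CYP2J2, CYP2U1, CYP2W1 and the compound 4 value of TSKU were added after their values were seen. The authors' shrinkage of log2-fold changes was not used, and 1 listed gene is not reported here by name.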

Additional observations from a re-analysis of the deposited data

How the results depend on the processing

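Of the fitted values of the 5 tested genes against DMSO, those of CYP3A5, CYP2B6 and RXRA kept their direction under every alternative run, as did CYP3A7 with compound 4 and NR1I2 with compounds 4 and 6. The adjusted p of CYP3A5 with compound 4 ranged from 4.42e-17 to 0.114, of CYP2B6 with compounds 4, 5 and 6 up to 0.228, 0.22 and 0.438. Without a filter on low counts, a fit that treats 23080 genes, CYP3A7 with compound 4 (1.83, adjusted p = 0.0037), CYP3A5 with compounds 5 and 6 (0.75 and 0.99) and CYP2B6 with compound 6 (1.61) passed the threshold. The last also passed with only the 4 samples compared (1.60), with at least 10 counts in every sample (1.61) and with DESeq2 (1.60), and CYP3A7 with compound 4 passed with only the 4 samples (1.82), where CYP2B6 with compound 5 was lost (1.43). With the replicate block CYP3A5 passed with compound 5 (0.75), and of the calls described here the block ended or added only that one, the CYP3A5 difference between compounds 4 and 5, and CYP1A1 with compound 5.

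Members past the threshold with compound 5 numbered 2 with the block and 2 without a filter, and 0 with only the 4 samples. Over all tested genes these fits called 1429 of 13400, 2431 of 23080 and 847 of 13011. With compound 6 members past it numbered 1 with only the 4 samples and 2 without a filter. They numbered 1 with at least 10 counts in every sample and 1 with DESeq2. The same fits called 1023 of 12998, 1355 of 23080, 198 of 12091 and 547 of 12620 genes, against 77 in the main fit. Between compounds 4 and 5 members past it numbered 1 with the block, 2 without a filter and 1 with DESeq2. Between compounds 4 and 6 they numbered 2 without a filter. Over all genes these fits called 128 of 13400, 750 of 23080, 210 of 13400 and 259 of 23080. In fits of the 4 samples of compounds 4 and 5, whose days correlated negatively, crossing the days called 278 genes, 2 of them members. The block as labelled called 17 genes. Days were crossed because of that correlation and against the labels, so the higher count cannot be read as a difference between the compounds. Without a filter 16 and 9 of the other targets passed with compounds 5 and 6, as did 2431 and 1355 of all 23080 genes. Near-zero values changed sign: NR1I2 with compound 5 (0.01 without DMSO replicate 1, 0.08 without compound 5 replicate 1), CYP3A7 with compound 5 (0.03, 0.12, and 0.59 with its readthrough gene summed in) and with compound 6 (0.11 without DMSO replicate 2, 0.70 without compound 6 replicate 2). Between compounds, CYP2B6 changed sign for 4 against 5 (-0.14 and -0.37), 6 against 5 (-0.23 and -0.09) and 4 against 6 (0.01 and 0.14), CYP3A5 for 6 against 5 (-0.09 and -0.12) and CYP3A7 for 6 against 5 (-0.14 and -1.33), each without 1 library. Over all single omissions these ranged from -0.53 to 0.75, -0.49 to 0.96 and -0.36 to 0.14 for CYP2B6, -0.12 to 0.66 for CYP3A5 and -1.33 to 0.79 for CYP3A7.

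Without 1 library or 1 day, the log2-fold changes with compound 4 ranged from 1.86 to 2.77 for CYP3A5, 0.97 to 1.95 for CYP2B6, 1.52 to 2.10 for CYP3A7 and 0.05 to 0.15 for NR1I2. With compound 5 they ranged from 0.88 to 1.85 for CYP2B6, -0.43 to 0.12 for CYP3A7, -0.16 to 0.09 for NR1I2 and 0.10 to 0.19 for RXRA, and with compound 6 from 1.01 to 2.17 for CYP2B6, -1.44 to 0.70 for CYP3A7 and -0.21 to -0.13 for RXRA. Fits that leave 1 library in a group assume that it varies like the others, and a single day gives values with no test. With compounds 4 and 5 the number of members past the threshold changed with the library left out, and with all 3 compounds that of other targets. So did the calls over all tested genes. Of 38 called values of genes outside the 7 that were refitted, 7 stayed past the threshold under every alternative. A floor of 10 counts in place of 3 put 2 of the 7 genes below detection in every library, against 0. Causes of these differences were not tested. Totals of 9791659 to 17814595 counts limit what can be said of NR1I3, CYP3A4 and CYP3A7.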

Other observations

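Genes whose levels ran most like those of the tested members were found by Pearson's r of log2 CPM over the 8 libraries among 12728 genes, and are given as a description, since the libraries share treatments and depth and the highest of so many values is high by selection. For CYP3A5 these were SLC1A7 (0.991) and VIL1 (0.987), a glutamate transporter and the actin-bundling villin, with the unnamed gene ENSG00000227619 (0.985). For CYP2B6 they were CAMTA2 (0.995), the long noncoding RNA LUCAT1 (0.994) and LRP10 (0.990). CYP3A7 ran most like ABHD8 (0.957), the unnamed gene ENSG00000280087 (0.936) and ANGPTL2 (0.922), NR1I2 like ARVCF (0.966), ADAT2 (0.940) and CPLX2 (0.938), and RXRA like STT3B (0.980), MUL1 (0.960) and VKORC1L1 (0.956). None of these 15 genes is on the lists of PXR and CAR targets or partners.

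The other promoters with an ER6 pair that matched a tested gene were those of ECSIT, an adaptor of immune signalling and mitochondrial assembly, and the noncoding LINC01639. ECSIT gave log2-fold changes of 0.02, 0.28 and -0.03 with compounds 4, 5 and 6 and LINC01639 0.54, -0.05 and 0.60, none past the threshold (adjusted p 0.145 to 0.943). They were named after their values were seen.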
